A study of Mus musculus with 10 samples.

Results

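The late neutrophil granule genes Mmp8, Mmp9, Ltf, Camp, Ngp, Lcn2, Pglyrp1, Chil3, Cd177 and Retnlg are 10 of 19938 genes that had an array value in this study of Zfx deletion in mouse leukaemia cells. They were chosen by name, as genes of the secondary and tertiary granules of neutrophils, with results for Mmp8 in these samples already known. Each of the 10 was represented by 1 probe set, and 9 of the 10 had a mean log2 signal of at least 6.23 (the array's 25th percentile) and were tested among 15662 genes. Retnlg, at 5.97 to 6.28, lay around that level and was not tested.

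Neutrophils fill their granules in a fixed order as they mature. Primary granules, with proteases and myeloperoxidase, are made at the promyelocyte stage, secondary granules with lactoferrin and other antimicrobial proteins at the myelocyte and metamyelocyte stages, and gelatinase (tertiary) granules last. Their genes are switched on by C/EBP factors, C/EBP epsilon above all for the secondary granules, together with PU.1 and GFI1. In MLL-AF9 leukaemia, in which a fusion of the MLL and AF9 genes keeps myeloid progenitors dividing, this late programme is thought to be held back at least in part. On the arrays here, Lcn2, Ngp and Pglyrp1 had mean log2 signals of 12.2, 11.1 and 10.4, against a median of 7.25 over all probe sets. Mmp8, Camp and Cd177 also lay above that median, and Mmp9, Ltf, Chil3 and Retnlg below it.

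The samples were c-Kit-positive cells from 5 lines, each an independent primary mouse leukaemia driven by MLL-AF9 and carrying a Cre-ER transgene, a Cre recombinase that tamoxifen activates. Lines 10949, 10950 and 10986 carried the Zfx fl/y allele, a conditional form of the X-linked transcription factor gene Zfx, and lines 10977 and 10980 were Zfx wt/y. They are called fl and wt lines below. Cells taken from moribund mice were grown for 72 h with 10 nM 4-hydroxytamoxifen (4-OHT) or with ethanol vehicle and then sorted for c-Kit, which gave 1 array per line and treatment, so 3 for each treatment of the fl lines and 2 for each of the wt lines. MLL-AF9 and Cre-ER were thus shared by all 10 arrays, and each line stands for 1 leukaemia. Nothing used here states the promoter of Cre-ER, the ages of the mice or whether the cultures of a line were handled together. All levels below are log2 array signals, a change is 4-OHT minus vehicle on that scale within a line, and tests are limma's over all genes tested with Benjamini-Hochberg adjustment at 0.05.

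Kit lay between 8.35 and 9.94 and the leukaemia genes Hoxa9 and Meis1 between 10.88 and 11.83 on all arrays. The change of Zfx with 4-OHT in the fl lines was 0.37 (SE 0.16, adjusted p = 0.407). Neither the deleted part nor the position of its probes is known here, so its level checks neither the deletion nor the labels. One array, 10986 with vehicle, was unlike the others, with a mean correlation of 0.961 to the other arrays against 0.979 to 0.985. For many genes changes are therefore given line by line or also without line 10986. Where an fl mean stands alone, it includes that line.

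Mmp8, which encodes the neutrophil collagenase stored in secondary granules, rose with 4-OHT in the fl lines. Lines 10949, 10950 and 10986 went from 8.23 to 10.97, from 7.72 to 9.89 and from 8.62 to 11.37. Of the wt lines, 10977 went from 9.04 to 9.57 and 10980 from 8.29 to 7.97. Every fl 4-OHT array was thus above the arrays of the other groups, and the vehicle arrays of both genotypes overlapped. The mean level was 8.19 ± 0.45 (SD, n = 3) on fl vehicle arrays and 10.74 ± 0.76 (SD, n = 3) on fl 4-OHT arrays, against 8.66 ± 0.53 and 8.77 ± 1.13 (SD, n = 2 each) on the wt arrays.

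The mean rise of Mmp8 was 2.56 (SE 0.19, n = 3 line pairs, limma adjusted p = 0.0143), or 5.88-fold with a 95% confidence interval of 4.28 to 8.08, and it was seen in 3 of 3 fl lines. It ranked 1 by size among the rises of all genes tested. Of all genes tested 0.153% passed in this comparison in either direction, and 0.0511% passed as higher. Mmp8 is the 1 member of the 9 that passed. The call held in the fit without line 10986 (change 2.46, adjusted p = 0.00212). It ended in the fits without line 10949 (2.46, adjusted p = 0.114), line 10950 (2.75, adjusted p = 0.128), or either wt line (2.56, adjusted p = 0.062), and without the line as a block (2.56, adjusted p = 0.11). Over 16 alternative settings the adjusted p ran from 9.87e-06 to 0.129, with 8 on each side of the threshold. Those 8 failures are not all separate, since dropping 10977 or dropping 10980 repeated the estimate from fl lines only (change 2.56, SE 0.16). When 10949 or 10950 was dropped, or wt arrays were excluded, 0 of all genes tested passed. Mmp8 then ranked 5, 4 and 1 by p.

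The wt lines give what 4-OHT and Cre activity do without a floxed allele. Mmp8 had changes there of 0.53 (line 10977) and -0.32 (line 10980), a mean of 0.10 (SE 0.23, n = 2 line pairs, adjusted p = 1). The fl change exceeded the wt change by 2.45 (SE 0.30, 95% interval 1.73 to 3.18, unadjusted p = 0.000109 in the limma fit), but it did not pass over all genes (adjusted p = 0.284). None of the 15662 genes passed limma's test of that difference, and 912 had an unadjusted p under 0.05. The exact permutation test of the 5 line changes of Mmp8, fl against wt, gave a two-sided p = 0.1, the smallest its 10 assignments allow. In the fit without line 10986 the difference passed (2.35, adjusted p = 0.0326), and without line 10980 it was 2.02 (adjusted p = 1). Over the alternatives its adjusted p ran from 0.0029 to 1. In sorted bulk samples, more cells of a type and more RNA per cell cannot be told apart, here or for any gene below.

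**Figure D1:**
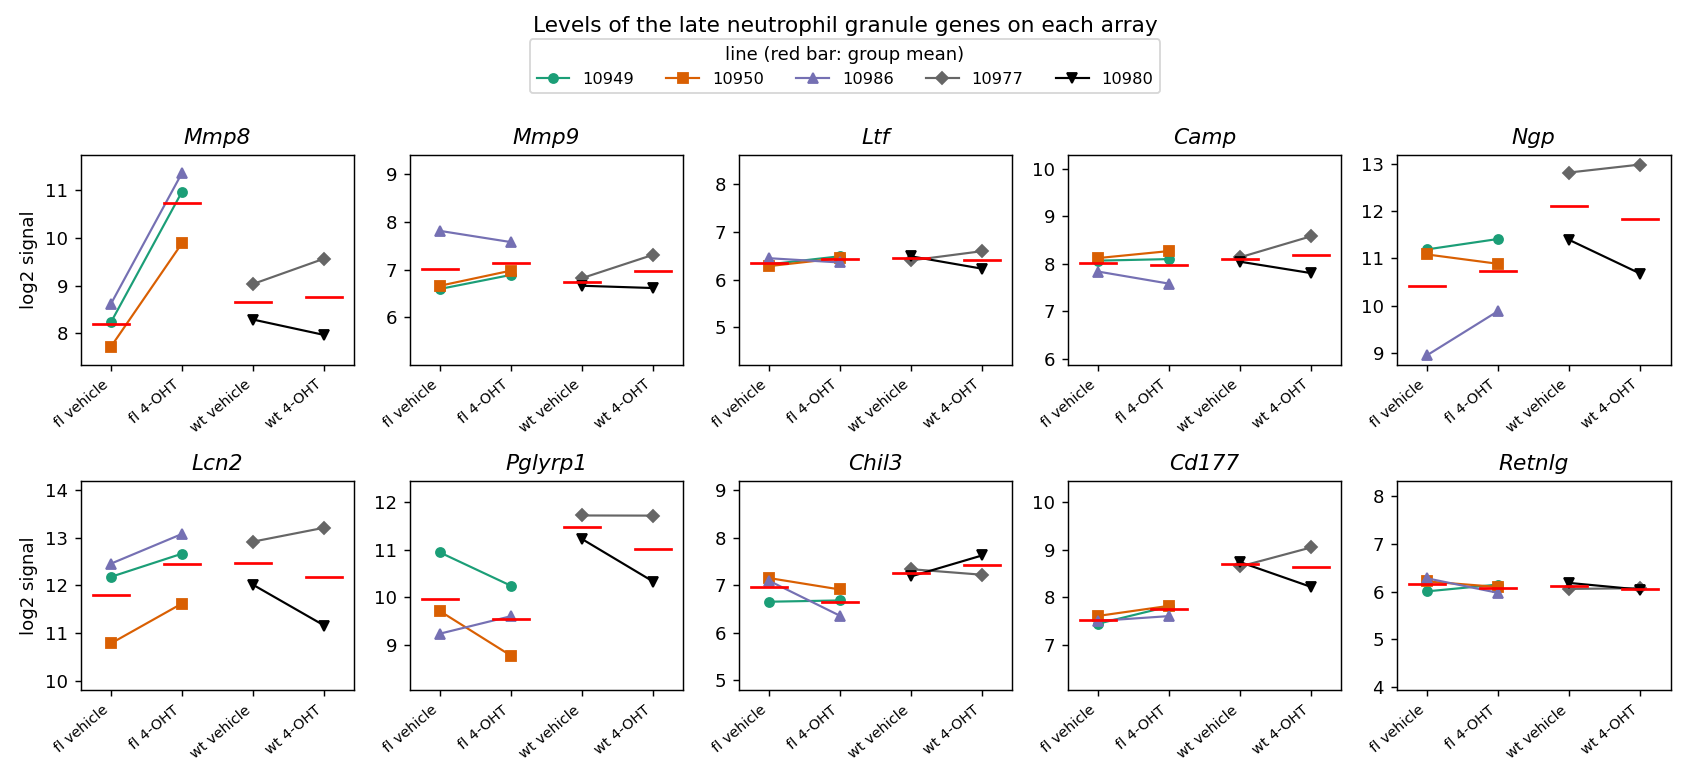
Log2 signal of each granule gene on the 10 arrays, with 1 line joining the vehicle and 4-OHT arrays of a leukaemia line and a red bar at each group mean (3 fl and 2 wt lines). Mmp8 climbs in all 3 fl lines to between 9.89 and 11.37, above every other array, while Ltf and Retnlg lie flat and Cd177 is higher on the 4 wt arrays than on the 6 fl arrays.

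Upstream sequences are shown for Mmp8, for Lcn2, which had the largest change of the other members, for Ngp, with 2 C/EBP motifs, and for Ltf, the 1 member promoter with the letters bound by ZFX. RefSeq promoter windows (GRCm38.p6, 250 bases before to 50 after the gene's start) were found for 9 of the 10 members, and Mmp9 had none. The 250 bases before the start are printed 5′ to 3′ on the gene's strand, with motif matches in capitals. The motifs searched on both strands of the 300 bases were TTNNGCAA for C/EBP factors, GAGGAA for PU.1 and AGGCCT for ZFX, and none of the printed matches overlap.
Mmp8, chr9:7558179-7558428, plus strand: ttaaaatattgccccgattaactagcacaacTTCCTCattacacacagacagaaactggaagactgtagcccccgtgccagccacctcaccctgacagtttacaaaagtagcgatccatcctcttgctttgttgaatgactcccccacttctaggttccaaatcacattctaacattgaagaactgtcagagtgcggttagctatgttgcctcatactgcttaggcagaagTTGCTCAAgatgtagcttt
Lcn2, chr2:32387740-32387989, minus strand: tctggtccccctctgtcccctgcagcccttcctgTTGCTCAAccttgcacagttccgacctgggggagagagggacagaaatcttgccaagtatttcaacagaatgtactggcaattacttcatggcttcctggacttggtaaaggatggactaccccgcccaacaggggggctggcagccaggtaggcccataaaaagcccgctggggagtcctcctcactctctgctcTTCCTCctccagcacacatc
Ngp, chr9:110419558-110419807, plus strand: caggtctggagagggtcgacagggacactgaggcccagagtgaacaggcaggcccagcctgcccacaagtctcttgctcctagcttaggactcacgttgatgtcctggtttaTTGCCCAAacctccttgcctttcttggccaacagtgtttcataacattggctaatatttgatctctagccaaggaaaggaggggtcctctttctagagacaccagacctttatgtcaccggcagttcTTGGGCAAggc
Ltf, chr9:111019042-111019291, plus strand: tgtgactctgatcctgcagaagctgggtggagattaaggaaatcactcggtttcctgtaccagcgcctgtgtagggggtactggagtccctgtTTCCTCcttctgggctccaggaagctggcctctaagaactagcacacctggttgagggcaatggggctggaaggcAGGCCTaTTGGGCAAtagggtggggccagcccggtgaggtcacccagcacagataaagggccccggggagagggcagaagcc

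Mmp8 and Lcn2 hold the same C/EBP match, TTGCTCAA, which begins at -19 from the start in Mmp8 and at -216 in Lcn2. Ngp holds TTGCCCAA at -138 and TTGGGCAA at -11, and Ltf holds TTGGGCAA at -75, next to AGGCCT at -82. The C/EBP letters were in 5 of the 9 member windows (Mmp8, Ltf, Ngp, Lcn2 and Retnlg), against 10.8% of 32851 windows in the RefSeq table. The PU.1 letters were in 5 of 9 (Mmp8, Ltf, Lcn2, Pglyrp1 and Cd177), against 28.3%, and the ZFX letters in 1 of 9, against 10.3%. These matches describe letters and show no binding. Of the 9 windows, 4 lie on chromosome 9 (Mmp8, Ltf, Camp and Ngp), those of Camp, Ngp and Ltf within 1.17 Mb of each other.

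Mmp9, the gelatinase of tertiary granules, did not pass the test. Its fl vehicle levels of 6.59, 6.66 and 7.81 and its fl 4-OHT levels of 6.89, 6.98 and 7.58, in lines 10949, 10950 and 10986, overlapped. The changes were 0.30, 0.32 and -0.24 in lines 10949, 10950 and 10986, a mean of 0.13 (SE 0.16, adjusted p = 0.897), with a 95% interval of -0.25 to 0.50. The highest level, 7.81, was on the vehicle array of line 10986. The other tested matrix metalloproteinases and their inhibitors gave 0 of 19 past the test by limma in the fl lines. Of the 19, 1 had an unadjusted p under 0.05, against 12.3% of all genes. The median change of the 19 was -0.01, against -4.03e-05 over all genes tested. Timp1 and Timp3, the metalloproteinase inhibitor genes with the largest changes, stood at 0.48 (SE 0.20, adjusted p = 0.386) and -0.12 (SE 0.10, adjusted p = 0.749), and Timp1 had a change of 1.11 in line 10986 against 0.15 and 0.18 in the other fl lines.

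In the RefSeq gene order Mmp8 lies in a row of metalloproteinase genes, between Mmp10 and Mmp27. Of the 6 protein-coding genes on each side, Mmp13, Mmp1b, Mmp3 and Mmp1a were below the level filter. The 8 tested ones (Mmp12, Mmp10, Mmp27, Mmp20, Mmp7, Tmem123, Birc2 and Birc3) had a change of -0.11 to 0.30 in the fl lines and 0 passed in limma. Of these 8, 1 had an unadjusted p under 0.05, against 12.3% of all genes. Mmp10 had a change of 0.09 (SE 0.09) and Mmp27 of 0.08 (SE 0.09).

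Among the antimicrobial proteins, Lcn2 moved up in every fl line without passing the test. It encodes lipocalin 2, which binds bacterial siderophores and so withholds iron. Lines 10949, 10950 and 10986 went from 12.18 to 12.66, from 10.78 to 11.62 and from 12.45 to 13.08, and the 2 groups overlapped because line 10950 lay low under both treatments. The mean change was 0.65 (SE 0.21, 95% interval 0.15 to 1.15, unadjusted p = 0.0182, limma adjusted p = 0.274). In the wt lines Lcn2 stood at 12.92 with vehicle and 13.21 with 4-OHT (line 10977), and at 12.01 and 11.15 (line 10980). The difference between genotypes was 0.93 (SE 0.33, adjusted p = 0.788), and it was 1.504 without line 10977 and 0.36 without line 10980.

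Ltf encodes lactoferrin, the iron-binding protein that defines secondary granules, and Camp encodes the antimicrobial peptide precursor cathelicidin. Ltf stayed between 6.23 and 6.60 on all 10 arrays, close to the level filter, where a fall could hardly be seen. Its fl change was 0.08 (SE 0.12, 95% interval -0.21 to 0.38, adjusted p = 0.935). Camp lay between 7.58 and 8.58, and its fl change was -0.02 (SE 0.15, 95% interval -0.39 to 0.34, adjusted p = 0.997). For both genes the fl intervals lie well below the rise of Mmp8. Whether the other members changed less than Mmp8 was not itself tested.

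Ngp, which encodes neutrophilic granule protein, a relative of the cathelicidins and cystatins, separated the lines more than the treatments. Its fl vehicle levels were 11.19, 11.09 and 8.94 in lines 10949, 10950 and 10986, and its fl 4-OHT levels were 11.42, 10.89 and 9.88. Line 10986 had the lowest Ngp under both treatments, and its vehicle array was the lowest of all 10. The fl changes of 0.22, -0.20 and 0.94 gave a mean of 0.32 (SE 0.25, adjusted p = 0.714), and it was 0.011 without line 10986 and 0.58 without line 10950. In the wt lines Ngp stood at 12.83 with vehicle and 0.17 above that with 4-OHT (line 10977), and at 11.40 and 10.68 (line 10980).

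Pglyrp1 encodes a granule protein that binds bacterial peptidoglycan. In line 10949 it went with 4-OHT from 10.94 to 10.25, in line 10950 from 9.71 to 8.78, but from 9.24 to 9.61 in line 10986. The mean fl change was -0.42 (SE 0.27, 95% interval -1.08 to 0.23, adjusted p = 0.634). It was -0.82 in the fit without line 10986, the line with the deviating vehicle array, -0.17 without line 10950 and -0.28 without line 10949. In the wt lines line 10977 kept Pglyrp1 at 11.72, and line 10980 went from 11.23 to 10.33.

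The remaining members are surface or secreted proteins of maturing neutrophils. Cd177 encodes a membrane glycoprotein whose human form partners with PECAM1 and holds proteinase 3 on the cell surface. It went from 7.45 to 7.81, from 7.61 to 7.82 and from 7.51 to 7.61 in lines 10949, 10950 and 10986. All 3 fl lines moved up, by a mean of 0.23 (SE 0.18, adjusted p = 0.718). The wt changes of Cd177 were 0.40 in line 10977, larger than in any fl line, and -0.52 in line 10980. Chil3, a chitinase-like lectin also called Ym1, had a change of 0.03, -0.24 and -0.74 in lines 10949, 10950 and 10986. Its mean fl change was -0.32 (SE 0.17, adjusted p = 0.551), or -0.11 without line 10986 and -0.49 without line 10949. Chil3 has a near-identical relative in Chil4, and the signal may mix both. Its level in line 10986 with 4-OHT, 6.36, lay near the level filter. Retnlg, a resistin-like secreted protein, had a change of -0.31 to 0.14 over the 5 lines.

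**Figure D2:**
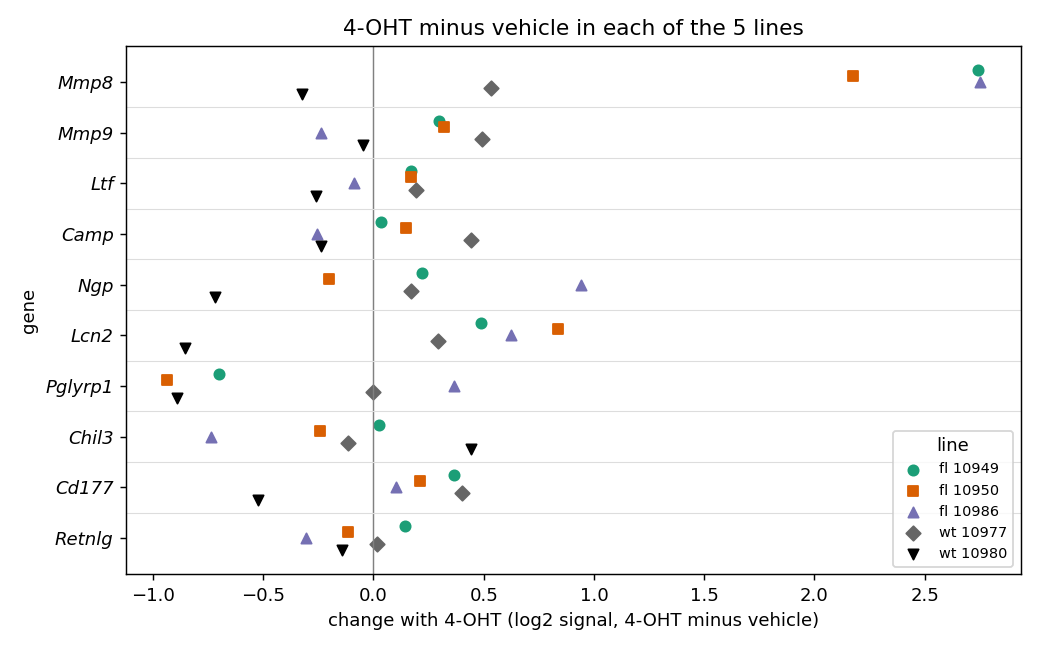
Change with 4-OHT (log2 signal, 4-OHT minus vehicle) of each granule gene in the 3 fl and 2 wt lines, 1 point per line. The fl points of Mmp8 lie at 2.18 to 2.75, apart from every other point in the plot, and the black triangles of wt line 10980 lie left of 0 for every gene except Chil3.

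Across the 9 tested members the median fl change was 0.13, against -4.03e-05 over all genes tested, and without Mmp8 the member medians were 0.20, 0.16 and 0.01 in lines 10949, 10950 and 10986. Of the 9, 3 (Mmp8, Lcn2 and Cd177) moved up in all 3 fl lines, against 14.6% of all genes tested, and 0 moved down in all 3, against 14.5%. Mmp8 alone had fl 4-OHT arrays all above the fl vehicle arrays, against 4.55% of all genes. At an unadjusted p under 0.05 there were 2 members (Mmp8 and Lcn2), against 12.3% of all genes, and the same 2 for the difference between genotypes, against 5.82%. By line, 8 of 9 members went up and 1 down in line 10949 (47.4% and 52.6% of all genes). In line 10950 it was 6 up and 3 down (57.5% and 42.5%), and in line 10986 it was 5 up and 4 down (45.5% and 54.5%).

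**Figure D3:**
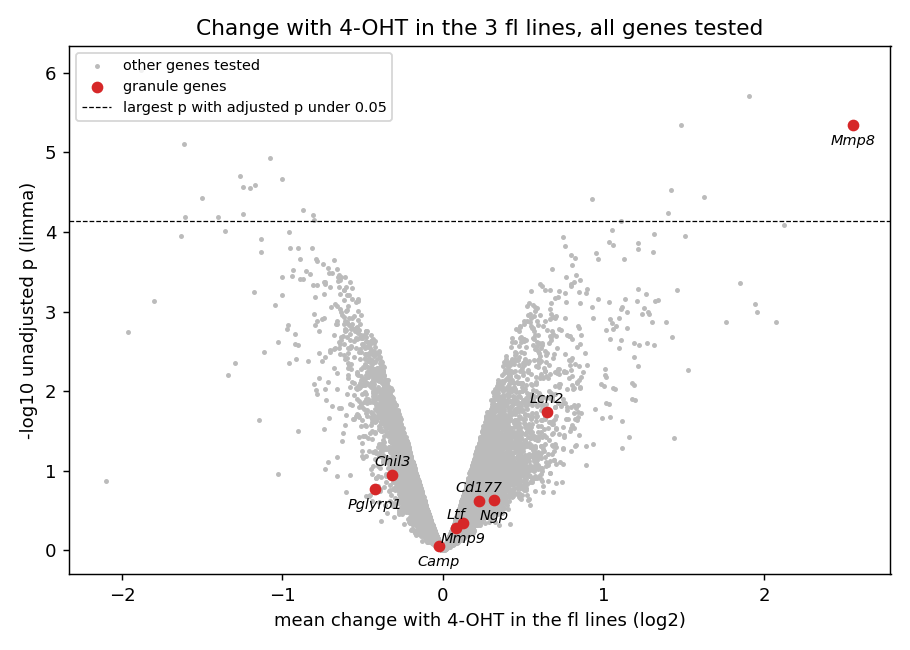
Mean change with 4-OHT in the fl lines (log2, x axis) against -log10 of limma's unadjusted p for the 15662 genes tested, with the 9 tested granule genes in red and a dashed line at the largest p that passed after adjustment. Mmp8 is the 1 granule gene above the dashed line, at a change of 2.56, and Lcn2 follows at 0.65.

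The genes whose 5 line changes lay nearest to those of Mmp8, by root mean square distance in log2 units, were Penk (0.49), Dab2 (0.53), Tlr13 (0.58), Gstt1 (0.71) and Lyz2 (0.72). Penk, the proenkephalin gene, had a change of 2.13 in the fl lines (SE 0.25, adjusted p = 0.051) and Dab2, an endocytic adaptor, of 1.91 (SE 0.13, adjusted p = 0.0143). Tlr13, a receptor for bacterial ribosomal RNA, had a change of 1.94 (SE 0.34, adjusted p = 0.0956). Gstt1, a glutathione transferase, and Lyz2, the lysozyme of macrophages and granulocytes, had a change of 1.85 (SE 0.29) and 2.08 (SE 0.40). None of these 5 was on the late granule lists used here, which do not name every gene that granulocytes make.

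Other late granule proteins gave 0 of 16 past limma's test in the fl lines, with 6 at an unadjusted p under 0.05, all up, against 12.3% of all genes. Their median change was 0.19, and 7 of the 16 moved up in all 3 fl lines, against 14.6% of all genes. Cybb, the large membrane subunit of the phagocyte NADPH oxidase, had a change of 1.32 (SE 0.28, adjusted p = 0.13). Olfm4, olfactomedin 4 of a subset of neutrophils, had a change of 0.80 (SE 0.29, adjusted p = 0.326). In lines 10949, 10950 and 10986 the changes were 1.326, 1.335 and 1.294 for Cybb and 0.34, 0.61 and 1.44 for Olfm4. Mature neutrophil genes outside the granules gave 0 of 15 past the test in the limma fit, with 8 at an unadjusted p under 0.05, all up, against 12.3% of all genes. Their median was 0.57, and 11 of 15 were up in all 3 fl lines, against 14.6%. Cxcr2, a receptor for neutrophil-attracting chemokines, and the annexin gene Anxa1 had changes of 1.08 (SE 0.21, adjusted p = 0.114) and 1.07 (SE 0.30, adjusted p = 0.211). Ly6g, which defines mature mouse neutrophils, had a change of -0.01 (SE 0.11).

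Line 10986 weighed on the mature neutrophil list, whose median change was 0.995 in that line against 0.40 and 0.24 in lines 10949 and 10950. Primary granule genes, made earlier, gave 0 of 13 past the test by limma, with a median of 0.01. Of the 13, 1 had an unadjusted p under 0.05, against 12.3% of all genes. The protease-activating cathepsin gene Ctsc had a change of 0.69 (SE 0.16, adjusted p = 0.155) and the granule membrane gene Cd63 of 0.26 (SE 0.25). In lines 10949, 10950 and 10986 the changes were 0.42, 0.50 and 1.14 for Ctsc and -0.34, 0.20 and 0.94 for Cd63.

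Most regulators of granulocyte development were lower with 4-OHT in the fl lines, and 1 fell. Of 9 transcription factor genes and the G-CSF receptor gene Csf3r, Cebpd fell by 0.80 (log2; SE 0.09, adjusted p = 0.047), in 3 of 3 fl lines. Irf8, a factor of the monocyte branch that restrains the granulocyte branch, rose by 0.93 (SE 0.10, adjusted p = 0.0373). The other 8 did not pass. For 6 of the 10, fl 4-OHT arrays were all below fl vehicle arrays, against 7.27% of all genes tested, and 7 of 10 moved down in all 3 fl lines, against 14.5%. The list had a median change of -0.33 in the fl lines and of -0.04 in the wt lines.

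Cebpe, the factor most tied to secondary granule genes, went from between 9.79 and 9.83 on fl vehicle arrays to between 9.13 and 9.43 on fl 4-OHT arrays. The change was -0.51 (SE 0.10, adjusted p = 0.122). Lines 10949, 10950 and 10986 gave -0.70, -0.36 and -0.48. Cebpb, Cebpa and Gfi1 had a change of -0.65 (SE 0.10), -0.48 (SE 0.14) and -0.43 (SE 0.10), also down in 3 of 3 fl lines, with adjusted p of 0.0845, 0.236 and 0.143. These 4 genes were chosen after their values were seen. Cebpd and Irf8 also passed in the fit without line 10986, and did not pass in the fits without line 10949, 10950, 10977 or 10980.

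Proteins that the members or their human forms act with gave 0 of 12 past limma's test in the fl lines, with a median of 0.43. Of the 12, 7 had an unadjusted p under 0.05, all up, against 12.3% of all genes. Some were already counted above, Itgam and Itgb2 with the late granule proteins, Trem1 with the mature neutrophil genes and Prtn3 with the primary granule genes. Lrp1, a scavenger receptor that takes up lactoferrin and metalloproteinases, had a change of 1.10 (SE 0.24, adjusted p = 0.134), and Trem1, a receptor of phagocytes that PGLYRP1 can engage, of 0.80 (SE 0.19, adjusted p = 0.155). Close relatives of the other members gave 0 of 8 by limma, with a median of 0.06. Of the 8, 3 had an unadjusted p under 0.05, all up, against 12.3% of all genes. Chil1, a chitinase-like relative of Chil3, had a change of 0.75 (SE 0.22, adjusted p = 0.236) and the urokinase receptor gene Plaur, of the same protein fold as Cd177, of 0.55 (SE 0.20). Both changes were largest in line 10986, at 1.13 for Chil1 and 0.95 for Plaur.

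**Figure D4:**
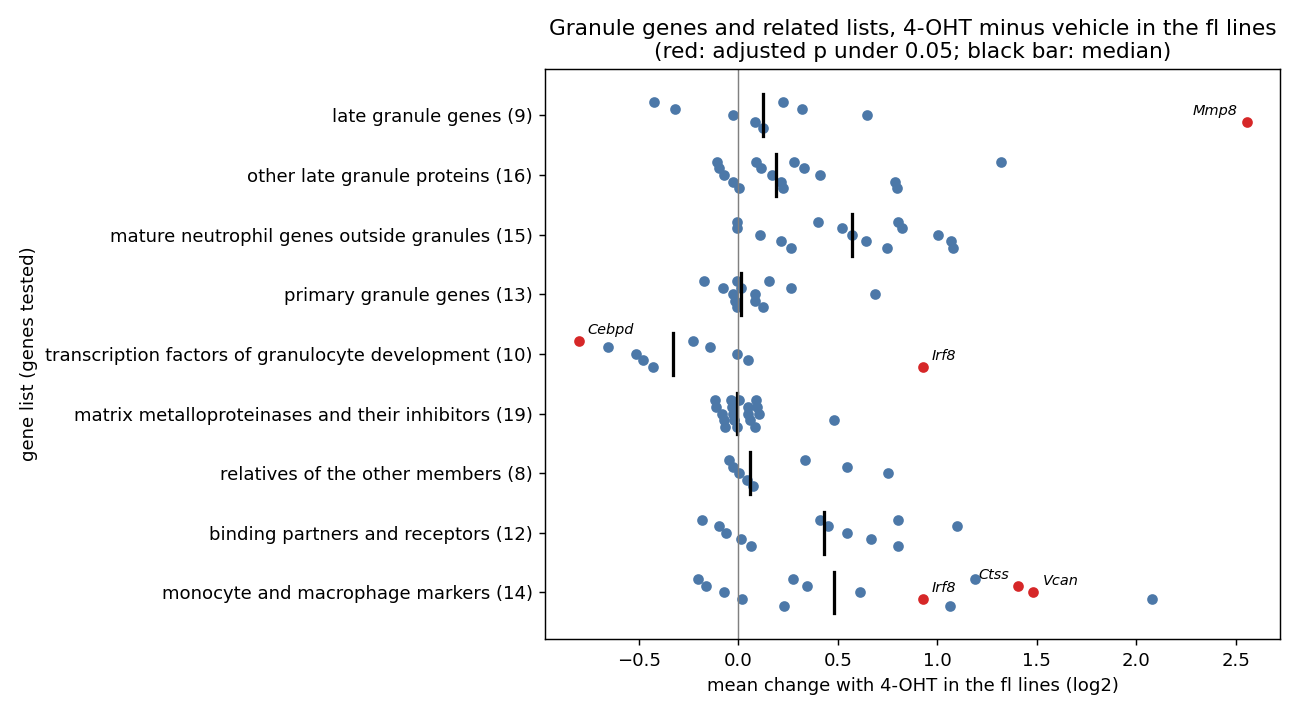
Mean change with 4-OHT in the fl lines (log2) of each tested gene of 9 lists, 1 point per gene, in red where the adjusted p was under 0.05, with a black bar at the list median. Mmp8 stands alone at the right of its list, the metalloproteinases cluster at 0, and most regulators of granulocyte development lie below 0.

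Markers of other cells moved in the fl lines beside Mmp8. Of 14 tested monocyte and macrophage markers, Vcan (1.48, SE 0.11, adjusted p = 0.0143), Ctss (1.41, SE 0.16, adjusted p = 0.046) and Irf8 rose and 11 did not pass, and the median change was 0.48. Of the 14, 9 moved up in all 3 fl lines, against 14.6% of all genes, and 1 (Klf4) moved down in all 3, against 14.5%. At an unadjusted p under 0.05 there were 8, against 12.3%. Klf4 (-0.20, SE 0.11), Ccr2 (-0.16, SE 0.23) and Cx3cr1 (-0.07, SE 0.15) had mean changes below 0, and F13a1 was at 0.02 (SE 0.36). Vcan, Ctss, Klf4, Ccr2, Cx3cr1 and F13a1 were named after their values were seen. The summed linear signal of the 15 measured markers ran from 8323 to 12270 on fl vehicle arrays and from 12080 to 18420 on fl 4-OHT arrays. In the wt lines it ran from 12400 to 12690 with vehicle and from 9955 to 14680 with 4-OHT. Bright genes weigh most in such a sum. Lyz2, which granulocytes also make, had the largest change of the tested markers, 2.08 (SE 0.40, limma adjusted p = 0.111). Its log2 level was 8.50 to 11.09 on fl vehicle and 11.53 to 12.42 on fl 4-OHT arrays. The 5 measured neutrophil markers, all also among the mature neutrophil genes, summed to 1599 to 2774 on fl vehicle and 1611 to 3194 on fl 4-OHT arrays. Of those 5, 0 passed by limma with 1 at an unadjusted p under 0.05, against 12.3% of all genes. Of 7 stem and progenitor markers 0 passed, with 3 at an unadjusted p under 0.05, all up, against 12.3% of all genes. Their median change was 0.20. Mast cell, basophil and eosinophil markers had 0 of 8 and erythroid and megakaryocyte markers 0 of 6 past limma's test, and lymphoid markers 0 of 3. At an unadjusted p under 0.05 these 3 lists had 1, 0 and 0, against 12.3% of all genes. The part of these markers in the rise of Mmp8 was not tested.

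The wt lines moved apart in these genes. In line 10977, 7 of the 9 tested members moved up with 4-OHT and 2 down, against 50.8% and 49.2% of all genes. In line 10980, 8 of 9 moved down and 1 (Chil3) up, against 50.9% and 49.1%. The change was higher in line 10977 than in line 10980 for 8 of 9, against 51.1%. The same 7 (Mmp8, Mmp9, Ltf, Camp, Ngp, Lcn2 and Cd177) went up in line 10977 and down in line 10980, against 26.5% of all genes, a count chosen after the values were seen. The member median was 0.29 in line 10977 and -0.32 in line 10980, against 0.0032 and -0.0029 over all genes. The largest falls in line 10980 were -0.89 for Pglyrp1, -0.86 for Lcn2 and -0.72 for Ngp.

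Primary granule genes did likewise, with 11 of 13 up in line 10977 and down in line 10980, against 26.5% of all genes. Their median changes in these lines were small, 0.076 and -0.12. Among mature neutrophil genes it was 11 of 15. Other lists showed it too, with 8 of 14 monocyte and macrophage, 4 of 7 stem and progenitor and 4 of 6 erythroid and megakaryocyte markers. It was 9 of 19 for the metalloproteinases and their inhibitors and 1 of 10 for the regulators of granulocyte development. No member passed in the wt lines by limma (adjusted p = 1 for each, 0 of 9 at an unadjusted p under 0.05). Over all genes 0% passed, with 23 of 15662 (0.147%) at an unadjusted p under 0.05. With wt arrays alone 0 passed too, but 449 were under 0.05 in limma. The main fit uses 1 spread estimate per gene for both genotypes. The SD of changes over all genes was 0.174 and 0.188 in lines 10977 and 10980, but 0.497 in line 10986. Not passing in the wt lines therefore does not show that a gene was unchanged. The wt lines differed, so the wt means of 0.22 for Mmp9 (SE 0.19), -0.45 for Pglyrp1 (SE 0.34) and -0.28 for Lcn2 (SE 0.26) lie between unlike values.

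In the vehicle cultures, several members were lower in the fl than in the wt leukaemias, though none passed the test. Cd177 was at 7.45, 7.61 and 7.51 in the fl lines against 8.65 and 8.74 in the wt lines, a difference of -1.17 (SE 0.21, unadjusted p = 0.000407, limma adjusted p = 0.197, from 0.000728 to 0.605 over the alternatives). Under 4-OHT it was at 7.61 to 7.82 against 8.22 to 9.05, so all 6 fl arrays lay below all 4 wt arrays. Pglyrp1 was at 9.24 to 10.94 against 11.23 to 11.72 (difference -1.51, SE 0.57, adjusted p = 0.485), and Ngp at 8.94 to 11.19 against 11.40 to 12.83 (difference -1.71, SE 0.83, adjusted p = 0.519). The Ngp difference was -0.97 without line 10986 and -0.99 without line 10977.

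With Chil3 (difference -0.29, SE 0.21, adjusted p = 0.548), 4 of the 9 members had fl vehicle arrays all below wt vehicle arrays, against 12.1% of all genes tested, and 0 had them all above, against 18.6%. The member median was -0.48, against 0.03 over all genes. By limma 0.0192% of all genes passed, each of them lower in the fl lines, but without line 10986 2 others passed, both higher. At an unadjusted p under 0.05 there were 2 members (Pglyrp1 and Cd177), against 9.83%. Mmp8 (-0.48, SE 0.52), Lcn2 (-0.66, SE 0.67), Camp (-0.08, SE 0.25), Ltf (-0.10, SE 0.13) and Mmp9 (0.28, SE 0.36) overlapped between the genotypes. With lines left out in turn the difference ran from -0.85 to -0.10 for Mmp8, the ends being without line 10980 and without line 10977. It ran from -1.11 to -0.15 for Lcn2, without line 10980 and without line 10950. Each genotype is represented here by different leukaemias, 3 against 2, so genotype and traits of single leukaemias cannot be told apart.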

How the data were processed

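RNA was hybridised to 10 arrays of 1 colour, a vehicle and a 4-OHT array for each line. The deposited values are intensities of probe sets, made by the authors by RMA, per the submitters' processing notes. This method usually corrects background, gives arrays one distribution and summarises probes, which can shrink differences of dim genes. No source used here names the software or its version. The values, 27.0 to 28840, are on a linear scale and log2 was taken here. The number of arrays, not read depth, limits precision.

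Of 35556 probe sets, 21789 had 1 gene symbol in the platform annotation, 1621 had several and 12146 were not listed there. The brightest single-symbol probe set stood for a gene. Genes at or above the 25th percentile went into two-sided tests by limma 3.58.1 (R 4.3.3). The 4-OHT effects had the line as a block (3 residual degrees of freedom, 6.694 with the prior), since each line was cultured both ways. Deviations of a line's 2 arrays from their group means had correlations of 0.78, 0.22 and -0.06 for 10949, 10950 and 10986, and of 0.43 for both wt lines. The genotypes under vehicle were compared with a random block for line (estimated correlation 0.165). Replicates are different leukaemias, so the spread of changes between lines enters the 4-OHT tests, and the spread of levels only the comparison under vehicle. No 2 arrays held identical values.

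On simulated data made for the fl comparison over 15662 genes, 66% of log2 changes of 1 and 95% of changes of 2 were recovered, with 8 false calls. The simulated noise was independent and, for a gene, of the same size in each line. In the data the SD of changes over all genes was 0.497 in line 10986, against 0.255 and 0.263 in lines 10949 and 10950. The shares thus hold for the simulation and do not measure recovery in these data. Members and lists were chosen with earlier results of these data known. The lists share some genes, among them Itgam, Itgb2, Trem1, Cxcr2 and Irf8, so their counts are not separate. All members are named. Of each list other than the cell type markers, up to 4 passing genes are named, filled to 2 with the largest changes, and the 5 genes nearest to Mmp8. Other genes are said to be chosen after their values were seen, apart from the neighbours of Mmp8, Ly6g and the check genes. Alternatives changed the block, level filter, scale, variance prior, probe sets per gene, array weights or the arrays used.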

Additional observations from a re-analysis of the deposited data

How the results depend on the processing

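Over 555 values of the members under other settings, 508 kept their direction and their side of the threshold, 8 lost the call, 9 gained one and 30 changed sign. The cause of these shifts was not tested, apart from fewer genes or arrays where the setting removes them. The setting centred on the median of the genes tested was chosen after seeing the data, and the array weights stopped before their convergence tolerance.

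Against 24 genes called in the fl lines there were 8 with no level filter, 14 with the filter at the 50th percentile, 3 with arrays centred on the median of all probe sets, 61 with quantile normalization (28 higher, 33 lower), 65 with arrays centred on the median of the genes tested (31 higher, 34 lower), 0 with the fl arrays alone (1453 at an unadjusted p under 0.05 in limma) and 3907 with array weights. With lines left out in turn the count ran from 0 to 440, the last without line 10986. The 24 were 8 higher and 16 lower. Member calls went from 1 to 0 without the replicate block, with arrays centred on the median of all probe sets, with fl arrays alone and without the vehicle array of line 10986 (with no block), to 4 with array weights (Mmp8, Mmp9, Lcn2 and Pglyrp1), and from 0 to 1 with lines left out. The Mmp8 change was 2.56 in the first 3 of these and 2.77 in the fourth (adjusted p = 0.129), and 2.46 to 2.75 with lines left out.

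Without the replicate block the Mmp8 change of 2.56 had an SE of 0.49 and lost its call, and 1 gene passed for the difference between genotypes. Against 0 genes called for that difference, 1 passed without both the vehicle array of line 10986 and the block, the same count as without the block alone, and 359 passed with array weights (1 member, Mmp8), and 0 to 20 with lines left out (0 to 1 members). Against 3 genes under vehicle, 0 passed with no level filter, with the 50th percentile, with quantile normalization or with vehicle arrays alone, 6237 with array weights (4 members, Mmp8, Lcn2, Pglyrp1 and Cd177), and 0 to 15 with lines left out. The 3 were all lower in the fl lines, whereas without line 10986, or without its vehicle array and the block, 2 passed, both higher, and 0 of the 3 were among them.

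These values changed sign. Without both the vehicle array of line 10986 and the block the fl change of Ngp was -0.41, while with the block kept and the whole line left out it was 0.011. Without the array and the block, the differences between genotypes were -0.14 for Ngp, -0.34 for Pglyrp1 and 0.30 for Mmp9, and those under vehicle -0.11 for Mmp9 and 0.0028 for Camp. With array weights the fl change of Camp was 0.037, the differences were -0.25 for Pglyrp1 and 0.063 for Mmp9, and those under vehicle -0.074 for Mmp9 and 0.022 for Camp. Quantile normalization gave a Pglyrp1 difference of -0.027. With lines left out, Camp ran from -0.11 to 0.090 in the fl lines. In the wt lines the ranges were -0.32 to 0.53 for Mmp8, -0.048 to 0.49 for Mmp9, -0.24 to 0.44 for Camp, -0.26 to 0.19 for Ltf, -0.72 to 0.17 for Ngp, -0.86 to 0.29 for Lcn2, -0.12 to 0.44 for Chil3 and -0.52 to 0.40 for Cd177. Differences ran from -0.36 to 0.17 for Mmp9, -0.42 to 0.47 for Pglyrp1, -0.47 to 0.21 for Camp, -0.11 to 0.34 for Ltf and -0.17 to 0.75 for Cd177, and under vehicle from -0.11 to 0.50 for Mmp9 and -0.14 to 0.0028 for Camp. Low signals limit Ltf and Retnlg, which lay near the level filter.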
